A study of Mus musculus with 17 samples.

Results

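Genes of the oligodendrocyte lineage were followed across the 17 expression arrays of the series: Olig1, Olig2, Nkx2-2, Sox10, Pdgfra and Cspg4. They were taken by symbol, as every probe set annotated to 1 of these 6 genes alone, which gave 11 of the 34945 probe sets with 1 gene symbol, or 6 of 18193 genes. Oligodendrocytes are the myelinating glia of the central nervous system. They arise from precursor cells that migrate and divide under platelet-derived growth factor (PDGF) before they differentiate. In the embryonic forebrain the first precursors come from ventral progenitors, and the cortex itself makes them later, around birth. Their specification rests on basic helix-loop-helix, homeodomain and Sox transcription factors, and the precursors are recognised by a PDGF receptor and a surface proteoglycan.

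The RNA came from cortical cells that were sorted by fluorescence from embryos of the hGFAP-eGFP mouse line. In it a human GFAP promoter drives a green fluorescent protein (GFP) in radial glia, progenitors that line the cortical ventricle, and all 5 groups carry the transgene. At embryonic day 14 (E14) there were GFPhigh Prominin+ cells (n = 4), GFPlow Prominin+ cells (n = 3), GFPhigh cells (n = 3) and GFPlow cells (n = 3), the last pair with no Prominin gate named in the labels. At embryonic day 18 (E18) there was 1 group, GFP+ Prominin+ cells (n = 4, replicates 2 to 5). Prominin is the membrane protein made from Prom1. Nothing in the labels ties the samples of a group to separate litters, so the p-values rest on the spread among the arrays of a group, and that spread may be technical. Each sample is a mixture of sorted cells, in which fewer cells of a type and less RNA per cell cannot be told apart.

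A level here is log2(intensity + 16) after quantile normalization across the 17 arrays, so an intensity of 0 has a level of 4 before normalization, and the median of all probe sets is 5.85. The scale compresses differences of dim genes, and levels of different probe sets are not set against each other. The background of an array was the 95th percentile of 83 probe sets for odour, pheromone and taste receptors, genes of the nose and tongue, and it ran from 5.24 to 6.06. A probe set counts as above background in a group when it was over that value on each of its arrays. Over all probe sets with 1 symbol, 44.4% to 49.5% were above background, depending on the group.

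Of 8 listed radial glia genes 7 were above background on all E18 arrays. Fabp7, a fatty acid binding protein of radial glia, was at 12.87 ± 0.24 (SD, n = 4) and Slc1a3, a glutamate transporter, at 9.23 ± 0.39. These are the 2 of the list that limma called higher at E18 than in E14 GFPhigh Prominin+ cells, and 5 were called lower. Prom1 was at 8.84 at E18 and 10.93 in those E14 cells, and Vim at 10.72 and 12.49. Gfap itself, whose human promoter drives the transgene, was at 5.77 ± 0.37 and above background on 3 of the 4 E18 arrays. The labels name a MessageAmp II kit for 12 arrays, which are all 11 Prominin+ arrays and E14 GFPhigh replicate 1. The remaining 5 were labelled with an Affymetrix kit. The 18S control signal was 2110 to 6150 on the E14 Prominin+ arrays, 569 to 910 on the E18 arrays and 114 to 1400 on the other E14 arrays.

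Of the 11 probe sets, 3 were above background on all E18 arrays: those of Olig1 and Olig2, and 1 of the 3 of Pdgfra. Another 4 were above it on some E18 arrays and 4 on none. In the E14 GFPhigh group 1 probe set, the 1450944_at set of Cspg4, was above background on all 3 arrays. In each of the other E14 groups 0 were. The counts above background on some arrays only were 4 in GFPhigh, 4 in GFPlow, 5 in GFPhigh Prominin+ and 3 in GFPlow Prominin+ cells.

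Promoter windows are shown for Olig2 and Pdgfra, since both genes rose at E18. Olig1, the neighbour of Olig2 on chromosome 16, has no window in the RefSeq table used. Of the 6 genes 4 have one. Each is the 250 bases before the annotated start, 5′ to 3′ on the gene's strand, from RefSeq on GRCm38.p6. Capitals mark matches to the E-box CANNTG, bound by basic helix-loop-helix factors, to AACAAT, a core recognised by Sox factors, or to TATAAA, the TATA box, each searched on both strands. The Olig2 window is chr16:91225300-91225549 and the Pdgfra window is chr5:75152001-75152250, both on the plus strand.
Olig2: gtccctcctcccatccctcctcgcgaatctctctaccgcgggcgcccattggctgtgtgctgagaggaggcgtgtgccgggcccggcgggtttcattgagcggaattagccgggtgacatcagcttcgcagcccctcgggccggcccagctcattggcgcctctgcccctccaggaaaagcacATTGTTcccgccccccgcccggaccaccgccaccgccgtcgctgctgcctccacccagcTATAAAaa
Pdgfra: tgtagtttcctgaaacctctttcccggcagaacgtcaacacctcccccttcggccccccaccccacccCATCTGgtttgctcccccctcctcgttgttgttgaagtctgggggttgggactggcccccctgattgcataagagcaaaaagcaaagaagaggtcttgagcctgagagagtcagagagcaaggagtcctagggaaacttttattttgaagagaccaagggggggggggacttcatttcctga

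The Olig2 window holds ATTGTT, the reverse complement of AACAAT, 67 bases before the start and TATAAA 8 bases before it, and no CANNTG. The Pdgfra window holds the E-box CATCTG 182 bases before the start. The starts used for Pdgfra and for Nkx2-2 lie inside the annotated spans of these genes. Nkx2-2 has 3 E-boxes in its window, and Cspg4 has no match to any of the 3 motifs. Among 32851 windows of 250 bases in the table, 66.2% hold CANNTG, 9.42% AACAAT and 12.4% TATAAA. These matches describe the letters in the windows and say nothing of binding.

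Olig1 and Olig2 encode basic helix-loop-helix factors of the lineage. Olig2 is needed for oligodendrocyte precursors to form and Olig1 for their maturation. The genes lie next to each other on chromosome 16 in GRCm38.p6, Olig2 at 91225550 to 91228677 and Olig1 at 91269769 to 91271939, and each has 1 probe set.

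Olig1 (1416149_at) was at 10.82, 10.93, 10.38 and 10.32 on E18 replicates 2 to 5, deposited intensities of 1630, 1890, 1180 and 1150. On the E14 arrays it was at 5.54, 5.11, 5.57 and 5.49 in GFPhigh Prominin+ cells and at 4.16, 5.74 and 5.31 in GFPlow Prominin+ cells. In the sorts with no Prominin gate named it was at 4.27, 5.42 and 5.72 in GFPhigh and 6.04, 4.63 and 4.28 in GFPlow cells. The lowest E18 array, at 10.32, thus stood far above the highest of the 13 E14 arrays, at 6.04, and 4 of those 13 were above background. From E14 GFPhigh Prominin+ to E18 cells Olig1 rose by 5.19 ± 0.29 on the log2 scale (SE, 95% interval 4.56 to 5.82, limma adjusted p = 6.35e-07), which is at least 33.3-fold against the background of the E14 arrays. This "at least" fold sets the E18 mean against, for each E14 array, the higher of its background and its own value. Against GFPlow Prominin+ cells, where 1 of 3 arrays was above background, the rise was 5.54 ± 0.31 (4.86 to 6.22, limma adjusted p = 2.32e-06), at least 28.4-fold. In both comparisons Olig1 had the largest rise of all 34945 probe sets. It ranked 1 in each other setting run, except that against E14 GFPhigh arrays with no gate named its rise of 5.48 ranked 3.

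Olig2 (1416232_at) was at 7.75, 8.56, 7.51 and 7.86 on E18 replicates 2 to 5. On the E14 arrays it ran from 4.28 to 5.65, and 1 of the 13 was above background. Group means at E14 were 5.25 ± 0.54 (SD, n = 4) in GFPhigh Prominin+, 5.06 ± 0.37 (n = 3) in GFPlow Prominin+, 4.86 ± 0.46 (n = 3) in GFPhigh and 4.53 ± 0.36 (n = 3) in GFPlow cells. No E18 array overlapped an E14 array, and the E14 groups overlapped one another. Olig2 rose by 2.67 ± 0.29 from E14 GFPhigh Prominin+ to E18 cells (2.03 to 3.30, limma adjusted p = 4.52e-05), at least 5.07-fold, with 1 of the 4 E14 arrays above background. Against GFPlow Prominin+ cells the rise was 2.86 ± 0.32 (2.17 to 3.54, limma adjusted p = 0.000122), at least 4.50-fold.

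**Figure D1:**
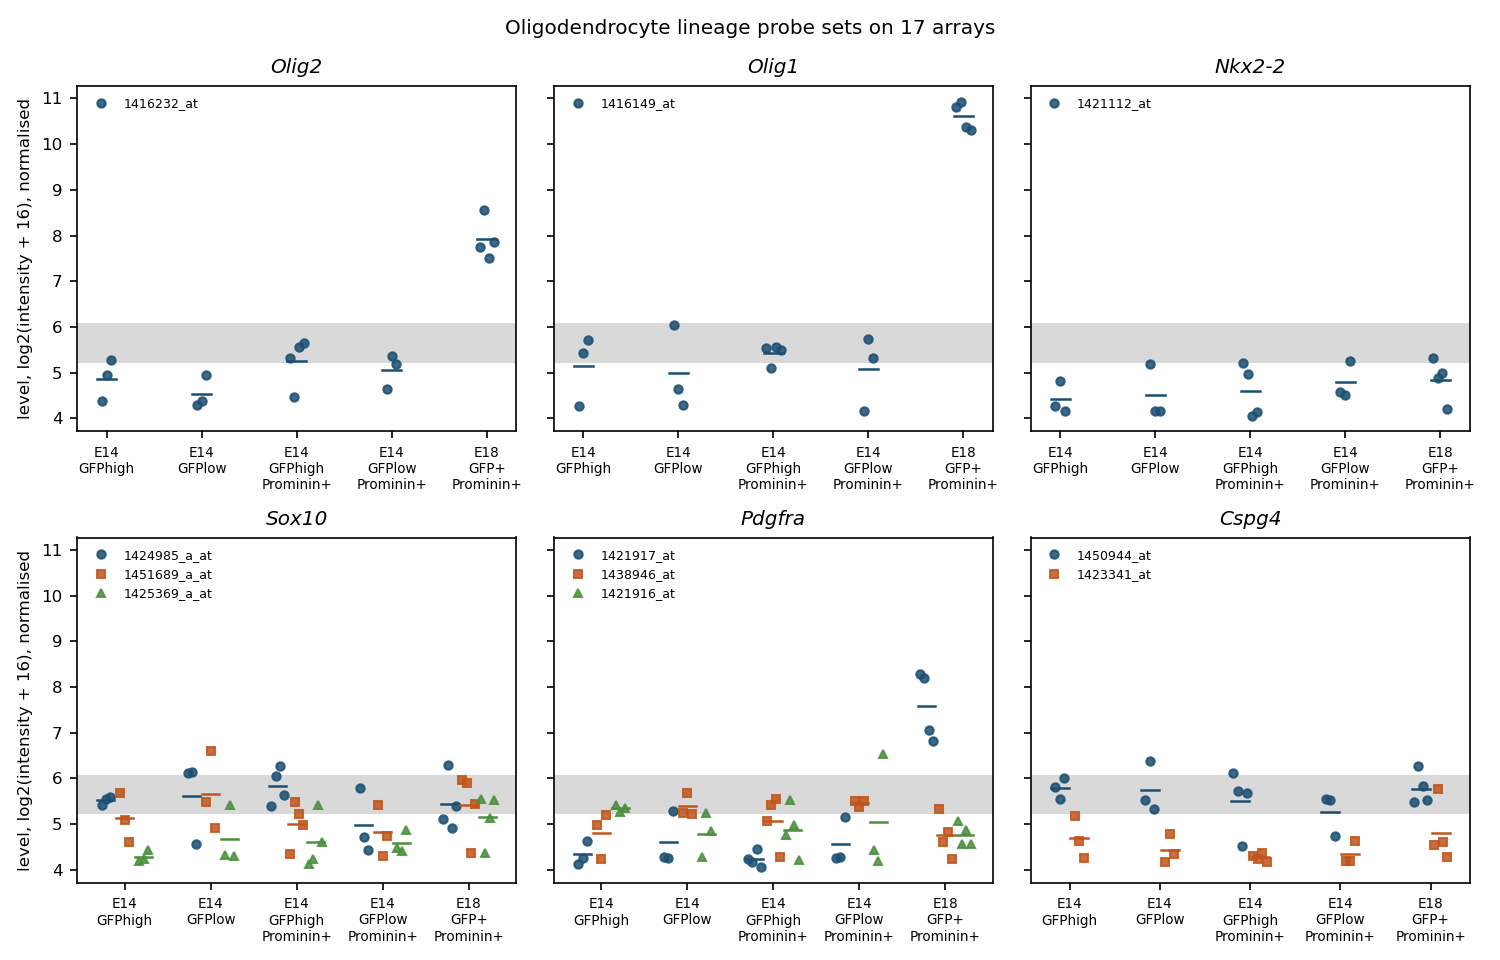
Level of each of the 11 probe sets, in log2(intensity + 16) after quantile normalization, on each of the 17 arrays, with 1 point per array, coloured by probe set, a dash for each group mean and the range of array backgrounds, 5.24 to 6.06, as a grey band. The E18 points of Olig1, Olig2 and 1 Pdgfra probe set stand above all E14 points, and the E18 points of the other 8 probe sets overlap them.

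Pdgfra encodes the PDGF receptor that marks oligodendrocyte precursors and passes on the growth signal that keeps them dividing. It is also made by mesenchymal cells such as those of the meninges. The gene lies on chromosome 5 at 75151322 to 75198206 and has 3 probe sets, which disagree. On E18 replicates 2 to 5 the 1421917_at set was at 8.29, 8.20, 7.05 and 6.81, intensities of 297, 278, 135 and 112. It was below background on all 13 E14 arrays, where its highest level was 5.29. Replicates 2 and 3 were thus higher than replicates 4 and 5, and all 4 stood above every E14 array. The rise was 3.36 ± 0.33 over E14 GFPhigh Prominin+ cells (2.64 to 4.08, limma adjusted p = 2.09e-05), at least 4.09-fold. Over GFPlow Prominin+ cells it was 3.02 ± 0.36 (2.24 to 3.79, limma adjusted p = 0.000191), at least 3.58-fold. Since its E14 values lie near 0 intensity, the size depends on the pseudocount: with 64 in place of 16 the first difference is 1.87, and with 1 it is 5.73.

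The other 2 Pdgfra probe sets were below background on all 4 E18 arrays. The 1438946_at set was at 5.33, 4.61, 4.83 and 4.24 at E18 and at 5.50, 5.38 and 5.50 in E14 GFPlow Prominin+ cells. Its difference of -0.70 ± 0.30 from those cells did not pass the threshold after adjustment (limma adjusted p = 0.144). The 1421916_at set was at 4.56 to 5.06 at E18. It was at 6.54 on GFPlow Prominin+ replicate 3, against 4.43 and 4.19 on the other arrays of that group. Probe sequences were not used here, so the part of the transcript each set reads is not given.

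Markers of pericytes and of meningeal and mesenchymal cells, which the sorts could hold, were set beside the rise of Pdgfra. Of these the mesenchymal cells are the ones named above as making Pdgfra. The pericyte list, 10 genes of the cells around capillaries, had a summed intensity of 282 to 443 at E18, 421 to 478 in E14 GFPhigh Prominin+ and 304 to 448 in E14 GFPlow Prominin+ cells. In GFPhigh Prominin+ cells that sum is largely Notch3, a receptor that radial glia also make, at 8.23 there and 6.16 at E18. Without it the other 9 genes summed to 212 to 377 at E18, 130 to 230 in GFPhigh Prominin+ and 184 to 308 in GFPlow Prominin+ cells. Pdgfrb, the defining receptor of pericytes, was above background on 0 of the 4 E18 arrays. Rgs5, a pericyte gene, was at 5.35, 5.66, 6.42 and 6.83 on E18 replicates 2 to 5, highest on the arrays where Pdgfra was lowest. Its mean was 6.06 at E18, 5.26 in GFPhigh Prominin+ and 5.98 in GFPlow Prominin+ cells. The meningeal and mesenchymal list, 10 genes, summed to 120 to 167 at E18, 66.4 to 159 in E14 GFPhigh Prominin+ and 105 to 242 in E14 GFPlow Prominin+ cells, and 0 of its genes were above background on all arrays of any group. Of the pericyte list 1 gene, Abcc9, was called higher at E18 against GFPhigh Prominin+ cells, by 0.99 ± 0.18 to 5.45, and 1, Notch3, lower. Against GFPlow Prominin+ cells only Notch3 was called, lower. Of the meningeal list 1 gene was called higher against GFPhigh Prominin+ cells, Col1a1, by 0.78 ± 0.22 to a level of 5.18. The part of pericytes and meningeal cells in the rise of Pdgfra was not tested.

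Nkx2-2, on chromosome 2 at 147176485 to 147195434, encodes a homeodomain factor of ventral progenitors and of precursors that begin to differentiate. Its 1 probe set (1421112_at) was below background on all 17 arrays. It was at 5.32, 4.89, 4.98 and 4.20 at E18 and between 4.06 and 5.26 at E14. The E18 difference from GFPhigh Prominin+ cells was 0.25 ± 0.31, with an interval of -0.41 to 0.92. That from GFPlow Prominin+ cells was 0.06 ± 0.33, with an interval of -0.66 to 0.78.

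Sox10, on chromosome 15 at 79154913 to 79164490, encodes the Sox factor that oligodendrocyte cells keep from precursor to myelinating stage and that neural crest cells also use. Its 3 probe sets were above background on 1, 2 and 0 of the 4 E18 arrays. The 1424985_a_at set was at 5.12, 6.29, 4.92 and 5.40 at E18, against 5.40, 6.05, 6.28 and 5.63 in E14 GFPhigh Prominin+ cells. The 1451689_a_at set was at 5.96, 5.91, 4.36 and 5.43, and the 1425369_a_at set at 5.55, 4.37, 5.13 and 5.53. All 3 overlapped their E14 values. Their differences at E18 ran from -0.41 to 0.55 against GFPhigh Prominin+ cells and from 0.45 to 0.60 against GFPlow Prominin+ cells, and the 6 intervals include 0. The highest upper bounds of these intervals were 1.22 and 1.46.

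Cspg4, on chromosome 9 at 56865104 to 56899870, encodes NG2, the surface proteoglycan of precursors that pericytes also carry. The 1450944_at set was at 5.49, 6.27, 5.83 and 5.52 at E18, above background on 2 of the 4 arrays. At E14 it was above background on 7 of 13 arrays, including all 3 of GFPhigh cells, at 5.81, 5.54 and 6.01. These are levels at the edge of the background, and with its 99th percentile that group has 0 such probe sets. The 1423341_at set was above background on 0 of 13 E14 arrays and on 1 E18 array, replicate 3, at 5.77. Neither set differed past the threshold at E18: the differences were 0.27 ± 0.33 and 0.53 ± 0.27 against GFPhigh Prominin+ cells and 0.51 ± 0.35 and 0.46 ± 0.29 against GFPlow Prominin+ cells.

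Counted together, 3 of the 11 probe sets, those of Olig1, Olig2 and Pdgfra 1421917_at, rose from E14 GFPhigh Prominin+ to E18 cells, and 0 fell. Over all probe sets tested in that comparison 9.84% were called higher and 13.5% lower. The same 3 rose against E14 GFPlow Prominin+ cells and 0 fell, where 6.75% of all probe sets were called higher and 9.47% lower. The comparisons share the E18 arrays and are not independent. The lowest E18 value lay above all 13 E14 values for 3 of the 11 probe sets and for 3.47% of all probe sets. The lowest adjusted p of the other 8 was 0.194 in the first comparison and 0.144 in the second, with 0 and 1 of them at an unadjusted p under 0.05. By gene, on the brightest probe set, Olig1, Pdgfra and Olig2 ranked 1, 6 and 31 of 18193 by rise over GFPhigh Prominin+ cells. They ranked 1, 7 and 10 over GFPlow Prominin+ cells. For Pdgfra that set was 1421917_at, brightest only through its E18 mean of 7.59. Its mean over all E14 arrays was 4.42, under the 5.17 of 1438946_at and the 5.01 of 1421916_at. Those other sets ranked 25284 and 19369 among probe sets over GFPhigh Prominin+ cells, and 31712 and 24140 over GFPlow Prominin+ cells. The gene rank of Pdgfra thus holds for 1421917_at alone. Among the 34945 probe sets, Pdgfra 1421917_at, whose E14 values lie below background, and Olig2 ranked 13 and 55 over GFPhigh Prominin+ cells. Over GFPlow Prominin+ cells they ranked 15 and 25, and these ranks moved with the setting. With those probe sets and E14 cells, the alternatives gave ranks of 2 to 97 and 39 to 142 over GFPhigh Prominin+ cells. Over GFPlow Prominin+ cells the ranks were 7 to 88 and 14 to 71. With E14 arrays with no gate named in their place, they were 108 and 149 over GFPhigh and 63 and 25 over GFPlow cells.

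**Figure D2:**
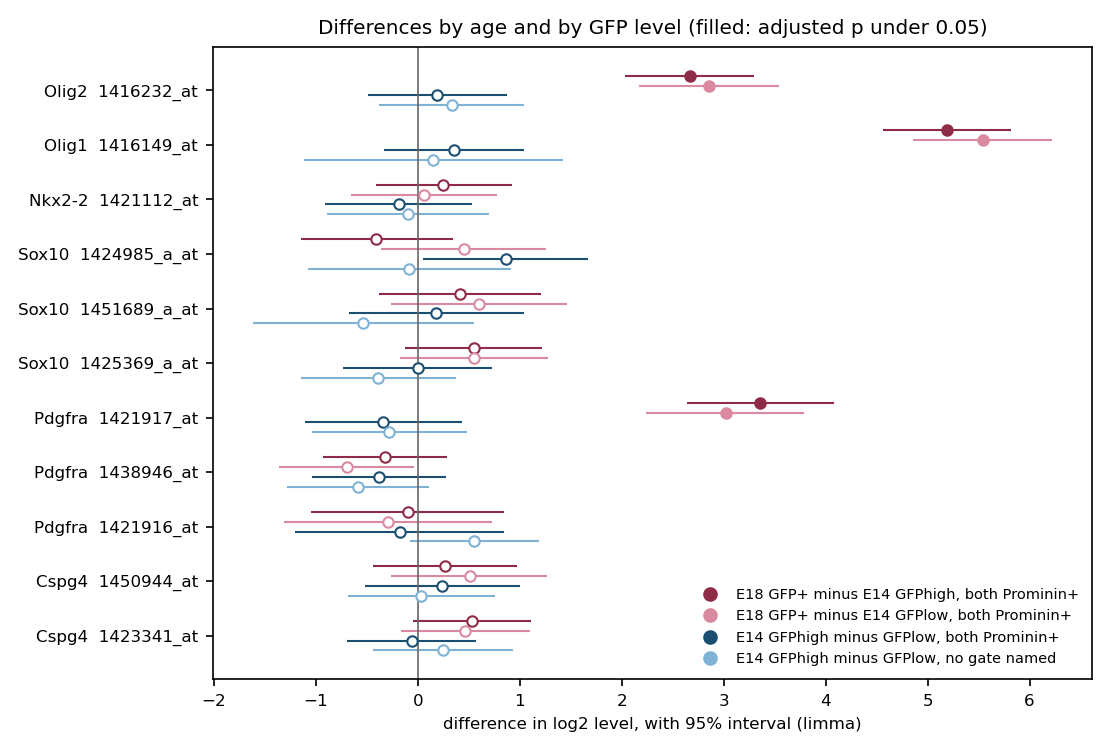
Differences in log2 level for each of the 11 probe sets, E18 minus either E14 Prominin+ group and GFPhigh minus GFPlow at E14 with and without the gate, with 95% intervals from limma and filled points where called. At E18 Olig1, at 5.19 and 5.54, Olig2, at 2.67 and 2.86, and 1 Pdgfra probe set, at 3.36 and 3.02, stand to the right of 0, and no other probe set was called in the 4 comparisons drawn.

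The E18 and E14 Prominin+ arrays share a labelling kit and differ in control signals. Beside the 18S values given above, the log2 difference of the 3′ from the 5′ Gapdh probe set, a sign of RNA length, was 0.54 to 2.29 on the E14 Prominin+ arrays and -0.21 to 1.00 at E18. The signal of dap, a bacterial transcript used as a labelling control, was 0.632 to 21.6 on 6 of the 7 E14 Prominin+ arrays and 4140 on GFPhigh Prominin+ replicate 1, against 837 to 2360 at E18. The part of these in the rises was not tested. Against the E14 arrays with no gate named, taken as the E14 side after the data were seen, the rises were 5.48 for Olig1, 3.06 for Olig2 and 3.25 for Pdgfra over GFPhigh cells. Over GFPlow cells they were 5.63, 3.39 and 2.97. Of those 6 E14 arrays 5 differ from the E18 arrays in labelling kit. With each array left out in turn, the 3 rises kept their call, at 5.08 to 5.88 for Olig1, 2.40 to 3.01 for Olig2 and 2.79 to 3.62 for Pdgfra over both comparisons.

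Within E14 the question was whether GFP level or the Prominin gate separates cells by these genes. Between GFPhigh Prominin+ and GFPlow Prominin+ cells limma called 0 of the 11 probe sets, with adjusted p of 0.394 to 0.998, where 0.592% of all probe sets were called. The difference was 0.35 for Olig1 (interval -0.33 to 1.04), 0.19 for Olig2 (-0.49 to 0.87) and -0.34 for Pdgfra 1421917_at (-1.11 to 0.43). One probe set, Sox10 1424985_a_at, had an unadjusted p under 0.05, at 0.86 ± 0.37 with an adjusted p of 0.394. Its levels were 5.40, 6.05, 6.28 and 5.63 in GFPhigh Prominin+ and 5.80, 4.72 and 4.43 in GFPlow Prominin+ cells, which overlap. The other Sox10 sets differed by 0.18 ± 0.40 and 0.00 ± 0.34.

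Between GFPhigh and GFPlow cells with no gate named, limma also called 0 of the 11, with adjusted p of 0.263 to 0.967 and 0 at an unadjusted p under 0.05. In that comparison 11.7% of all probe sets were called. Olig1 differed by 0.15 (-1.12 to 1.42) and Olig2 by 0.33 (-0.38 to 1.04). The interval for Olig1 is wide, since the GFPlow arrays ran from 4.28 to 6.04. Prominin+ sorts against those with no gate named gave 0 of 11 calls within GFPhigh cells, where 21.7% of all probe sets were called. Within GFPlow cells they gave 0 of 11, where 19.6% were called. The adjusted p were 0.372 to 0.887 and 0.231 to 0.953, with 0 unadjusted p under 0.05 in either. The gate comparisons also differ in labelling kit for 5 of the 6 arrays with no gate named. The kit as a block was among the alternatives run. In that fit only GFPhigh replicate 1 separates kit from gate, which is too little to tell them apart. The difference between the GFP contrasts with and without the gate was called for 0 of the 11 probe sets, at adjusted p of 0.476 to 0.974, and for 4.87% of all. At these levels, mostly under background at E14, differences smaller than the intervals given were not detectable.

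Across the 17 arrays, with the step between ages included, Pearson's r was 0.953 for Olig1 with Olig2, 0.926 for Olig1 with Pdgfra and 0.922 for Olig2 with Pdgfra. With group means removed these were 0.42, 0.16 and 0.49. Over the 13 E14 arrays alone they were 0.45, -0.14 and 0.19. The points share arrays and scaling, and the values are descriptions.

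Among 10954 genes above background in at least 1 group, those with a pattern most like Olig1 were Fgf14, an intracellular partner of sodium channels, at r = 0.955, Tmeff2, a transmembrane protein with follistatin domains, at 0.954, and Olig2. Next came Grm3, a metabotropic glutamate receptor, at 0.948. Those most like Olig2 were Thsd7a at 0.965, Marchf1, a ubiquitin ligase, at 0.963, and Olig1. For Pdgfra they were Fgf14 and Tmeff2, both at 0.943, and Etnk1 at 0.941. Grm3 was at 6.77 ± 0.25 at E18 (SD, n = 4) and 4.12 to 4.56 on the E14 arrays. Fgf14 was at 8.41 ± 0.27 against 4.94 to 6.06, Tmeff2 at 7.98 ± 0.32 against 5.17 to 6.22 and Thsd7a at 7.54 ± 0.31 against 4.16 to 5.21. With group means removed the r with Olig1 was 0.27 for Fgf14, 0.56 for Tmeff2 and -0.32 for Grm3. The r with Olig2 was then 0.71 for Thsd7a and 0.63 for Marchf1, and that with Pdgfra 0.41 for Fgf14, 0.38 for Tmeff2 and 0.24 for Etnk1. Cspg4 1450944_at was most like Hs3st2, Dusp28 and Cldn3, at 0.822, 0.820 and 0.802, with 0.81, 0.79 and 0.80 after group means were removed.

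The wider genes of the lineage were read by role, with 1 probe set per gene, the brightest. Of all genes, 9.59% were called higher and 15.5% lower at E18 against GFPhigh Prominin+ cells, with a median difference of -0.07. Against GFPlow Prominin+ cells these were 5.72% and 10.7%, with a median of -0.10. Among 6 ligands 1 rose in either comparison: Pdgfa, the ligand of the Pdgfra receptor, by 1.16 ± 0.16 (7.71 against 6.55, limma adjusted p = 0.000238) and by 0.86 ± 0.17 (limma adjusted p = 0.00539). The list medians were -0.04 and -0.06.

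Of 8 transcription factors of specification and of precursors, 0 rose and 4 fell against GFPhigh Prominin+ cells, with a median of -0.70. Sox9, a factor of radial glia and glial fate, fell by 1.52 ± 0.17 and Myt1, a zinc finger factor of precursors and neurons, by 1.36 ± 0.20. Against GFPlow Prominin+ cells 1 rose and 2 fell, with a median of -0.42. Sox8, a close relative of Sox10, rose by 1.52 ± 0.27 (limma adjusted p = 0.00227), and Sox9 fell by 0.62 and Myt1 by 0.73. That count of 2 falls held without E18 replicate 3, but was 0 without E18 replicate 2, E18 replicate 4 or GFPlow Prominin+ replicate 3, and 1 without any of the other 3 arrays. Against E14 cells with no gate named, 2 of the factors fell over GFPhigh and 1 over GFPlow cells. Of 6 inhibitors of differentiation, 2 rose and 4 fell against GFPhigh Prominin+ cells, with a median of -1.27, and 0 rose and 2 fell against GFPlow Prominin+ cells, with a median of -0.58. Sox5 and Sox6, Sox factors that hold precursors back, fell by 2.27 and 1.92 in the first comparison and by 2.77 and 1.26 in the second. Both also serve in cortical neurons and progenitors.

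Of 10 surface and matrix genes of precursors, 5 rose and 0 fell against GFPhigh Prominin+ cells, with a median of 0.68, and 3 rose and 0 fell against GFPlow Prominin+ cells, with a median of 0.64. Ptprz1, a receptor phosphatase of radial glia and precursors, rose by 2.15 ± 0.17 and 1.77 ± 0.18. Cspg5, neuroglycan C, rose by 1.32 ± 0.24 and 1.50 ± 0.26. In E14 GFPhigh and GFPlow cells with no gate named, Cspg5 was at 7.12 and 7.39, about its E18 level of 7.15. Ptprz1 was at 10.82 and 11.04 there, against 11.64 at E18. Against those cells 5 of the list rose and 0 fell over GFPhigh, and 2 rose and 1 fell over GFPlow cells. Radial glia and neurons make several of these genes as well. Of 13 myelin and differentiation genes 0 rose in either comparison, with medians of -0.01 and -0.02. Against GFPhigh Prominin+ cells 1 fell, Mbp, a myelin protein with transcripts in other cells, by 0.76 ± 0.22 (limma adjusted p = 0.0256). That count was 0 without GFPhigh Prominin+ replicate 1, E18 replicate 4 or E18 replicate 5, and 2 without GFPhigh Prominin+ replicate 4 or E18 replicate 3. Without E18 replicate 4, 1 of the 13 was called higher in either comparison, and 1 was against E14 GFPhigh cells with no gate named. Of the 13 genes, 2 were above background on all E18 arrays and 8 on none. Cnp was at 7.46 and Mbp at 6.53 at E18, against 7.24 and 7.29 in GFPhigh Prominin+ cells. Mog and Mag, myelin proteins of mature oligodendrocytes, were at 4.22 and 4.34 at E18.

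**Figure D3:**
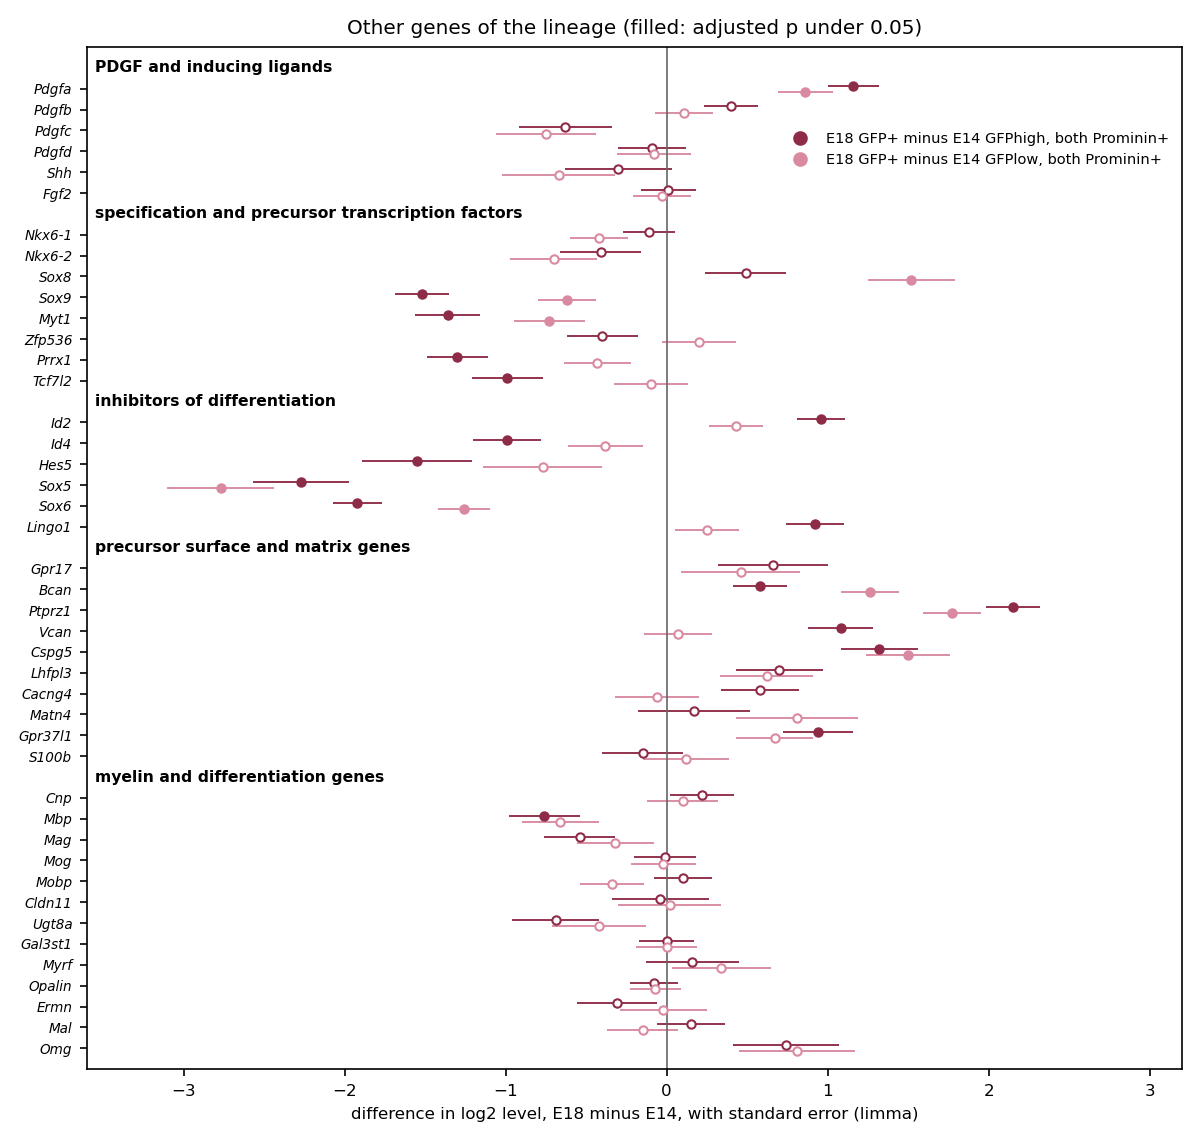
Difference in log2 level between E18 GFP+ Prominin+ cells and either E14 Prominin+ group for each gene of the wider lineage lists, grouped by role, 1 point per gene and comparison with its standard error, filled where called by limma. Ptprz1, at 2.15, and other surface and matrix genes lie to the right of 0, Sox5 and Sox6 to the left, and no myelin gene was called higher.

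Genes of ventral forebrain progenitors and of the interneurons they make were read beside the members. Of 12 such genes 8 rose and 0 fell in either E18 comparison, with medians of 1.65 and 1.73. Dlx1, a homeodomain factor of the ventral forebrain, rose by 4.04 ± 0.23 to 10.13 over GFPhigh Prominin+ cells, 16.5-fold, and Gad1, an enzyme of GABA synthesis, by 3.03 ± 0.25, 8.16-fold. The summed intensity of the list was 3040 to 3480 at E18, 313 to 617 in GFPhigh Prominin+, 446 to 745 in GFPlow Prominin+, 147 to 171 in GFPhigh and 191 to 307 in GFPlow cells. On all arrays of a group 8 of the 12 were above background at E18, 4 in either E14 Prominin+ group, 1 in GFPhigh and 0 in GFPlow cells. Nkx2-1, Gsx1, Lhx8 and Dlx6 were not above it on all arrays of any group. Their part in the rise of Olig1, Olig2 and Pdgfra was not tested. Among E14 cells, 6 of the 12 ventral genes were called higher in the Prominin+ sort within GFPhigh cells, where 11.6% of all genes were, and 4 within GFPlow cells, where 10.3% were. In either, 0 of the 11 probe sets of the members were called. Of these 11, 1 was above background on all arrays of E14 GFPhigh cells and 0 were in the other E14 groups. At such levels a small difference was not detectable, so these counts cannot tell whether the members go with the ventral genes at E14. The Prominin+ arrays also differ in labelling kit from most E14 arrays with no gate named.

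**Figure D4:**
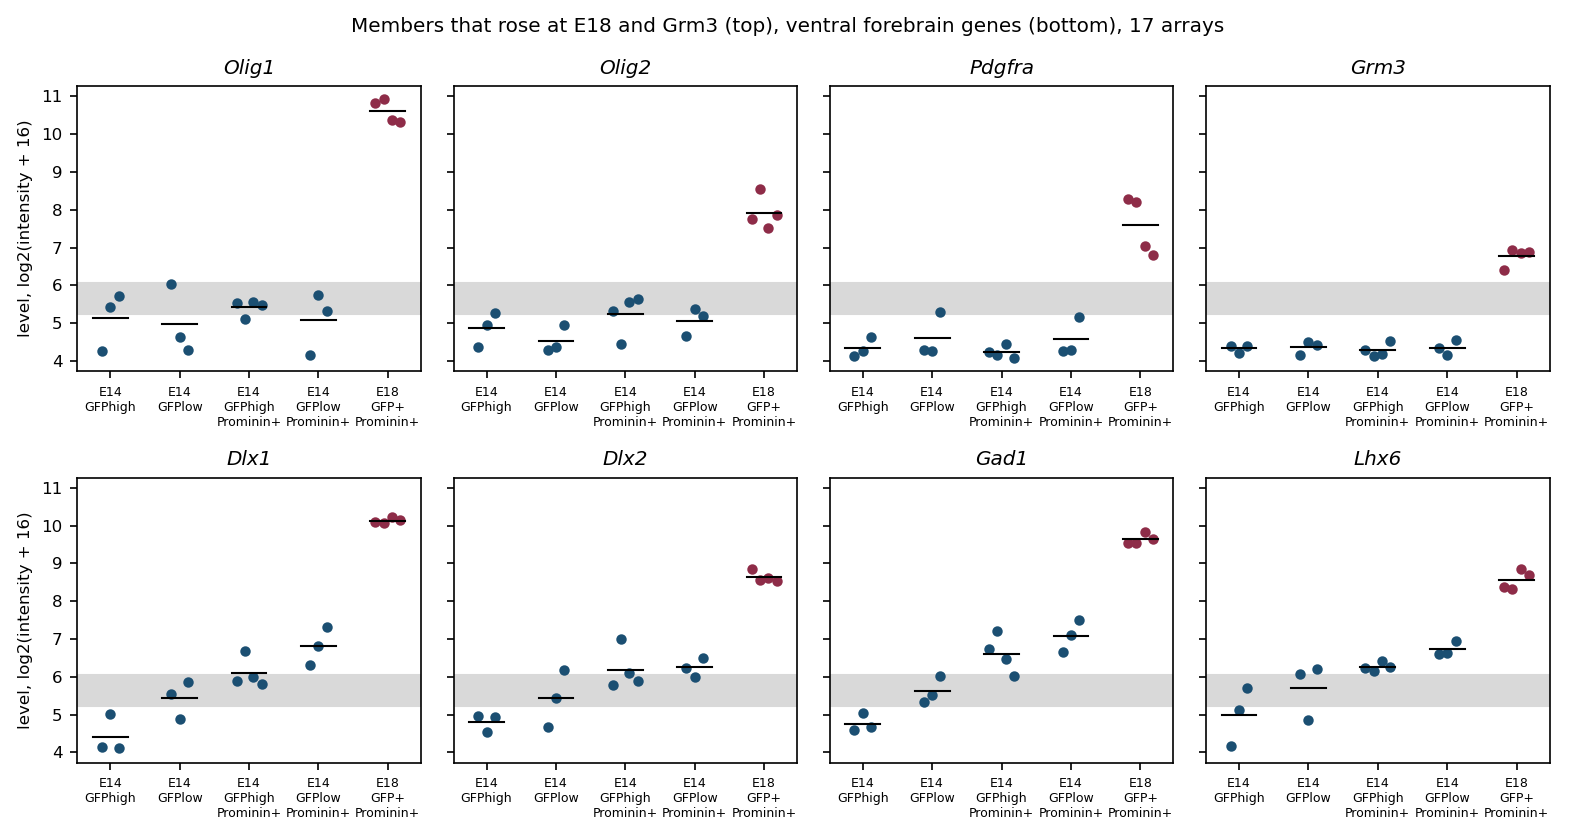
Levels, in log2(intensity + 16) after quantile normalization, of the members that rose with Grm3 (top) and of genes of the ventral forebrain (bottom) on each of the 17 arrays, with 1 point per array, a dash for each group mean, the groups side by side and the range of array backgrounds as a grey band. Dlx1 is highest at E18, at 10.13 on average, and at 6.09 and 6.81 in the E14 GFPhigh and GFPlow Prominin+ groups. Olig1, read against its own E18 mean of 10.61, is at 5.42 and 5.07 in those groups.

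Of lists for other cells the sorts could hold, 7 of 8 neuron genes rose against GFPhigh Prominin+ cells, with a median of 1.36, and 3 rose and 1 fell against GFPlow Prominin+ cells, with a median of 0.66. Of 8 radial glia genes 2 rose and 5 fell in the first comparison and 2 rose and 4 fell in the second. Of 5 neural crest and Schwann cell genes, cells in which Sox10 is also active, 0 rose and 1 fell in either. Of 8 endothelial and 8 microglial genes 0 were called in either. The part of these cells in the members' rise was not tested.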

How the data were processed

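Total RNA from sorted cells was hybridised to 17 Affymetrix mouse arrays, 1 per sample. Per the labels, samples fall into 5 groups of 3 or 4 by age, GFP and Prominin. The deposited values are 1 linear intensity per probe set for 45101 probe sets. How the authors summarised and scaled them is not given in the sources used here. All arrays have the same trimmed mean, 150 after the values under the 2nd and over the 98th percentile are left out, and their medians are 24.2 to 45.1. Detection calls were not used here.

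After 64 control probe sets were left out, probe sets with 1 gene symbol in the platform annotation were kept (34945, with 932 of several symbols and 9160 of none set aside). All 6 members matched RefSeq by gene identifier. Values were log2-transformed with a pseudocount of 16 and quantile normalized, a step computed here from the deposited intensities. All 34945 were tested with limma 3.58.1 in R 4.3.3 (eBayes, two-sided, Benjamini-Hochberg, threshold 0.05), on the 11 Prominin+ arrays, the 6 others, or all 17 where a contrast crosses the gate. Lists use the adjusted p over all 34945 probe sets. The fit was tested on simulated data. Python 3.11.15 with matplotlib 3.10.9 drew the figures.

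The members, lists and the rule for named genes were chosen with earlier results of these data known. The rule names all members, up to 3 genes per wider list and comparison with the lowest p among those called, and the genes with the highest correlation to a measured member. Marker genes of other cells, Cnp, Mog and Mag are named as examples chosen after their values were seen. Some other genes of the lists are not reported here.

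Same-numbered replicates correlated at -0.144 to 0.04 after group means were removed, so numbers were not taken as pairs. There were 0 identical pairs of arrays. Alternatives were the pseudocount, the normalization, a filter on dim probe sets, the brightest probe set per gene, the background rule, the kit or replicate number as a block, and each array left out in turn.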

Additional observations from a re-analysis of the deposited data

How the results depend on the processing

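The rises of Olig1, Olig2 and Pdgfra 1421917_at at E18 kept their direction and their call in both comparisons in each alternative run that held their probe set. Leaving out the dimmest 40% of probe sets removed that of Pdgfra and left 2 member genes called. Over those alternatives the difference from E14 GFPhigh Prominin+ cells ran from 4.14 to 5.82 for Olig1, 1.74 to 3.43 for Olig2 and 1.87 to 5.73 for Pdgfra, with limma adjusted p up to 0.000403, 0.00223 and 0.000346. Against GFPlow Prominin+ cells it ran from 4.27 to 6.81, 1.83 to 3.69 and 1.75 to 4.61. The ends come mostly from pseudocounts of 64 and 1. With the replicate block 3 member genes were called in either E18 comparison and 0 in the other comparisons, the same counts as without it. The 8 other probe sets in the E18 comparisons, and all 11 in the others, were called in 0 of the alternatives. The count of probe sets above background on every array of E14 GFPhigh cells, 1 with the 95th percentile, was 0 with the 99th percentile and 0 with the highest group mean of Gfap as the limit. Leaving out arrays for the gene lists and using E14 arrays with no gate named were chosen after seeing the data. With 3 or 4 arrays a group and most members under background at E14, a small difference there was not detectable.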
